A study of Ovis aries with 18 samples.

Results

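The 6 pools of blastocysts sired by control rams were examined on their own, as a reference for gene expression in sheep embryos whose sires received no added methionine. They were chosen by the diet in their labels and make up 6 of the 12 embryo pools and 6 of the 18 samples of the series. Each pool held the RNA of 5 embryos, and the 3 rams (Ram410, Ram423 and Ram444) contributed 2 pools each (Embryo410_1 and Embryo410_2, Embryo423_1 and Embryo423_2, Embryo444_1 and Embryo444_2). The rams were Polypay sheep, on average 88 days old when they went onto the basal diet, which they ate for 77 days. They were bred after the feeding period to superovulated Polypay ewes. The study's schematic shows 1 ewe for each control ram, while its methods allow for more, so that the pools of a ram share their sire and, by the schematic, their dam. Embryos were flushed from the uterus 8 days after the rams were introduced and ranged from early to hatched blastocysts. Whole transcriptomes were amplified before sequencing, and because the embryos were pooled, the spread described here is between pools, not between embryos.

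A blastocyst consists of an outer epithelium, the trophectoderm, which pumps fluid into the central cavity and later forms the placenta, and an inner cell mass, which separates into the epiblast (the future embryo) and the hypoblast (the future yolk sac lining). In ungulates the trophectoderm proliferates and elongates before attachment to the uterus, and holds most of the cells of the blastocyst. Keratins 8 and 18 form the intermediate filaments of this simple epithelium. In pools of whole embryos, fewer cells of a type and less RNA per cell cannot be told apart.

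The counts of a pool summed to between 1173289 and 1554651 over 20092 gene rows, and 19372 to 19504 rows had at least 1 count in a given pool. These sums are a small part of the reads that the paper reports for its embryo pools. What became of the other reads was not examined. A total of 18525 rows (92.2%) had a count in each of the 6 pools. The median row held 26.8 to 28.8 CPM, the number of counts out of 1000000 after library sizes were scaled by TMM (trimmed mean of M-values). Gene lengths of the build used were not at hand, so a CPM is a share of counts and was not corrected for length. The table also lacks rows for some familiar genes: of 883 protein-coding RefSeq genes with a curated transcript, 6 (0.68%) matched a row, against 88.8% of the 20417 with predicted transcripts only. ACTB, GAPDH, SOX2, GATA3, TFAP2A and CDK1 were among the genes not analysed here, and every share refers to the listed rows.

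Embryo444_2 stood apart from the other pools and is given separately throughout. With 1 library of these embryos, a difference in the embryos and a difference in the preparation of the library cannot be told apart, for genes that were higher in it as for genes that were lower. Its Spearman correlation with the other pools across 14856 genes was 0.465 to 0.538, including 0.519 with Embryo444_1, the pool of the same ram. The remaining pools correlated at 0.806 and 0.813 within a ram and at 0.779 to 0.817 between rams. These are correlations across genes, which are not independent replicates and share the amplification and depth of their pools. Its total was the lowest of the 6 (1173289 counts) and its TMM factor the highest (1.17, against 0.889 to 0.995), while the number of rows with a count (19441) lay within the range of the others.

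Counts were spread over many genes, and a small set of abundant transcripts led them. The 10 leading genes of each pool held 3.37%, 4.54%, 5.29%, 4.28% and 4.55% of the counts in Embryo410_1, Embryo410_2, Embryo423_1, Embryo423_2 and Embryo444_1, and 0.875% in Embryo444_2. The 100 leading genes of each pool held 10.4% to 14.8% in those 5 pools and 4.51% in Embryo444_2. The number of genes that together held 50% of the counts was 1927 to 2651 in the 5 pools and 3350 in Embryo444_2. Of the 20092 rows, 32 averaged 1000 CPM or more over the 5 pools and carried 6.94% of their counts on average (range 5.78% to 8.45%), but 0.577% of the counts of Embryo444_2. In contrast, the 13516 rows between 10 and 100 CPM carried 52.0% in the 5 pools and 69.5% in Embryo444_2.

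The same 20 genes led whether Embryo444_2 was counted or not. TALDO1 (transaldolase, of the non-oxidative pentose phosphate pathway), RPL8 (a protein of the large ribosomal subunit) and KRT8 (keratin 8) were the first 3, with mean shares of 0.788%, 0.638% and 0.572% over 6 pools. In the order of pools given above, TALDO1 measured 7559, 8699, 17444, 9005, 6598 and 181 CPM. KRT8 measured 5545, 9457, 9001, 7394, 3966 and 120 CPM. LGALS3, the carbohydrate-binding protein galectin-3, ranked 6 with 2834, 3331, 2094, 3644, 2754 and 15.4 CPM. For TALDO1, KRT8 and LGALS3, Embryo444_2 lay below the lowest of the 5 other pools, and its CPM was 48.2-fold, 61.7-fold and 185-fold lower than their median. Among the 5, TALDO1 was highest in Embryo423_1, and both TALDO1 and KRT8 were lowest in Embryo444_1.

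**Figure D1:**
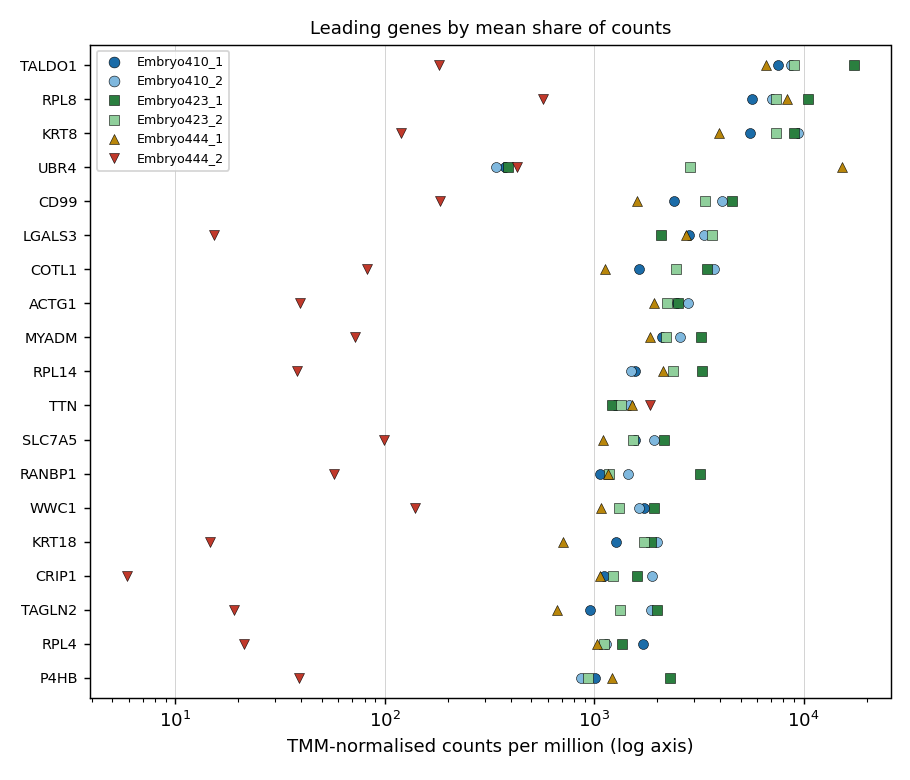
Leading genes by mean share of counts (19 of the first 20 are drawn), with the TMM-normalised CPM of each pool on a log axis; each symbol is 1 pool of 5 embryos. In 17 of the 19 genes drawn Embryo444_2 has the lowest level, and UBR4 is high in Embryo444_1 (15305 CPM) and Embryo423_2 (2882 CPM) only.

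The other leading genes fell into a few functions. Cytoskeletal and cortical genes were COTL1 (an actin-binding protein), ACTG1 (gamma actin), KRT18 and TAGLN2, WWC1 is a scaffold of the Hippo pathway, and membrane proteins were CD99, MYADM and SLC7A5, the light chain of a large neutral amino acid transporter that also carries methionine. ACTG1 was among the most even, with 2484, 2811, 2503, 2227 and 1932 CPM in the 5 pools and 39.5 CPM in Embryo444_2. SLC7A5 measured 1563, 1939, 2165, 1541 and 1097 CPM, and 98.7 CPM in Embryo444_2. RPL14 and RPL4 are ribosomal proteins, P4HB is an endoplasmic reticulum chaperone and RANBP1 serves nuclear transport. CRIP1, a small LIM-domain protein, measured 1071 to 1887 CPM in the 5 pools and 5.85 CPM in Embryo444_2.

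Of these 20 genes, 18 were lowest in Embryo444_2 and the same number were at least 10-fold below the median of the 5 other pools there. The exceptions were TTN and UBR4. TTN, the gene of the giant muscle protein titin, measured 1251, 1465, 1220, 1342 and 1516 CPM in the 5 pools and 1840 CPM in Embryo444_2, where it was the first gene by share. UBR4, an E3 ubiquitin ligase, measured 376, 340, 389, 2882, 15305 and 426 CPM. It was the first gene of Embryo444_1, at 5.31 times the CPM of the next pool, and its place among the leading genes rests on Embryo444_1 and Embryo423_2. Each of the 5 pools had 15 to 17 of the 20 genes among its own 20 leading genes, and Embryo444_2 had 2. After TTN, the leading genes of Embryo444_2 (looked up after their values were seen) were ZNF280B, ZBTB25, NEB and LCOR, at 841, 673, 652 and 625 CPM.

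By function, the cytosolic ribosomal proteins took the largest share of counts of any single list examined in the 5 pools. In Embryo444_2 the very long genes described later took more than they did. The 65 cytosolic ribosomal protein genes with a row held 2.76% to 3.67% of the counts in the 5 pools (3.09% ± 0.363, SD, n = 5) and 0.228% in Embryo444_2. Translation factors, led by EIF4A1, PABPC1, EEF1A1 and EEF2, held 0.654% ± 0.0598 (SD, n = 5) over 32 genes and 0.172% in Embryo444_2. Chaperones, led by P4HB, HSP90AB1, HSP90AA1 and HSPA8, held 0.669% ± 0.117 (SD, n = 5) over 25 genes and 0.147% in Embryo444_2. Genes of the proteasome, which degrades ubiquitin-tagged proteins, held 0.253% ± 0.033 (SD, n = 5) over 29 genes and 0.112% in Embryo444_2.

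Cytoskeletal genes followed the ribosomal proteins, with 1.70% ± 0.341 (SD, n = 5) over 26 genes and 0.104% in Embryo444_2. Next to the keratins and ACTG1, this list was led by PFN1 (profilin, 703 to 1548 CPM in the 5 pools and 25.6 CPM in Embryo444_2) and MYH9 (non-muscle myosin, 873 to 1157 CPM and 141 CPM). EZR, or ezrin, links actin to the apical membrane of epithelia and measured 505 to 936 CPM, with 43.9 CPM in Embryo444_2. Cell junction genes were less abundant as a share of counts. Their 19 genes held 0.210% ± 0.0178 (SD, n = 5), and 0.152% in Embryo444_2. They were led by DSP (desmoplakin, 197 to 354 CPM and 198 CPM), CGN (cingulin), CDH1 (E-cadherin, 152 to 321 CPM and 73.9 CPM) and PARD3, a polarity protein.

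Among genes of energy metabolism, TALDO1 alone set the level of the pentose phosphate list. The 6 genes of that list held 0.709% to 1.61% in the 5 pools, whereas TKT (transketolase) measured 220 to 318 CPM and RPIA 89.6 to 185 CPM. Glycolytic genes held 0.209% ± 0.0218 (SD, n = 5), led by ALDOA (aldolase A, 569 to 739 CPM) and LDHB (163 to 448 CPM). The corresponding levels of ALDOA and LDHB in Embryo444_2 were 26.3 and 12.4 CPM. Nuclear-encoded subunits of the respiratory chain and ATP synthase held 0.469% ± 0.0487 (SD, n = 5) over 46 genes and 0.0944% in Embryo444_2, with ATP5F1C (427 to 622 CPM and 14.6 CPM) the first. In the lipid list, the lipid-droplet protein PLIN3 measured 162 to 376 CPM, with 57.0 CPM in Embryo444_2.

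Genes of the methionine and folate cycles and of polyamine synthesis were of interest because methionine was the nutrient varied elsewhere in the study. The 20 genes with a row held 0.250% ± 0.0172 (SD, n = 5) and 0.132% in Embryo444_2. SRM, MAT2A and ODC1 led this list. SRM (spermidine synthase) measured 320, 510, 679, 569, 78.8 and 20.5 CPM, with the lowest values in the pools of Ram444, including Embryo444_2. In the quasi-likelihood test of edgeR between rams its unadjusted p was 0.00746 and its adjusted p 0.909, while DESeq2 called it. ODC1, which makes putrescine, measured 457, 283, 363, 199, 437 and 12.4 CPM. MAT2A, which makes the methyl donor S-adenosylmethionine from methionine, measured 331, 224, 596, 341, 347 and 76.8 CPM. AMD1 measured 159 to 276 CPM in the 5 pools and 31.4 CPM in Embryo444_2.

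Among chromatin and DNA methylation genes (0.304% ± 0.0168, SD, n = 5, over 23 genes and 0.245% in Embryo444_2), the de novo methyltransferase DNMT3A came first with 537, 661, 866, 600, 488 and 265 CPM. TET1, which oxidises methylcytosine, measured 454, 527, 413, 440, 328 and 321 CPM, and the histone demethylase KDM5B 255 to 355 CPM with 133 CPM in Embryo444_2. These genes differed less between Embryo444_2 and the other pools than the leading 20 did. Of 12 imprinted genes with a row, 8 passed the filter on low counts described with the test between rams below. IGF2R, the maternally expressed receptor that clears IGF2, was the first with 237, 307, 300, 394, 348 and 218 CPM. It was followed by GRB10 with 190, 94.3, 264, 102, 129 and 76.1 CPM. PHLDA2 was near 0 (0 to 5.76 CPM) and SNRPN had no count in any pool.

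**Figure D2:**
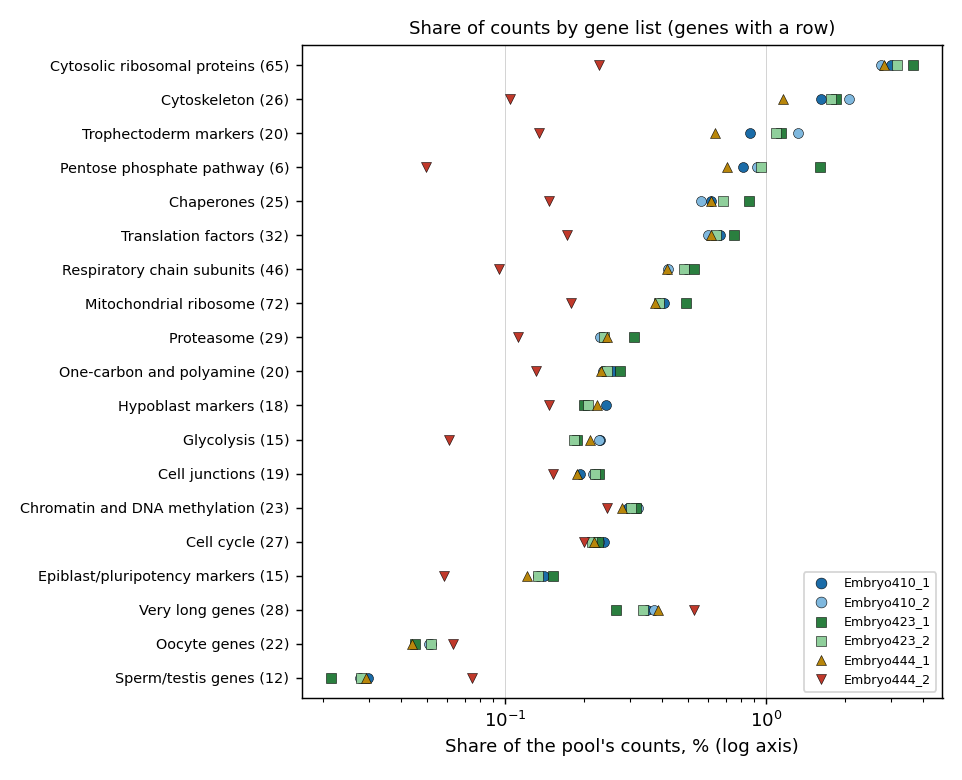
Share of each pool's counts, in % on a log axis, taken by the genes of each list; the number of genes with a row is given in parentheses and each symbol is 1 pool. Ribosomal proteins take 2.76% to 3.67% in 5 pools and 0.228% in Embryo444_2, whereas the very long genes, oocyte genes and sperm genes take their largest share in Embryo444_2.

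The pools are labelled as inner cell mass and trophectoderm, and markers of both were measured. All 20 trophectoderm genes with a row passed the filter. Their summed level was 8782, 13300, 12852, 10990 and 6443 CPM in the 5 pools and 1159 CPM in Embryo444_2, and most of it came from KRT8 and KRT18. KRT18, the partner of KRT8, measured 1268, 1992, 1860, 1733, 709 and 14.6 CPM, and both keratins were lower in Embryo444_1 than in the 4 pools of the other rams. Among transcription factors, TFAP2C, which acts in trophectoderm and pluripotent cells, measured 449, 331, 579, 439, 456 and 51.2 CPM. TEAD1, a partner of YAP, measured 241, 201, 224, 257, 173 and 358 CPM and was highest in Embryo444_2. ESRRB measured 122 to 226 CPM and the endocytic adaptor DAB2 171 to 280 CPM in the 5 pools, with 25.6 and 58.5 CPM in Embryo444_2.

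Of the factors known for specifying trophectoderm, CDX2, GATA2, TEAD4, ELF5 and EOMES had small shares of counts. GATA3 and TFAP2A had no row. CDX2 measured 111 CPM in Embryo410_1 and 37.4, 23.9, 30.7 and 28.9 CPM in the next 4 pools, close to the median row, with 2.93 CPM (4 counts) in Embryo444_2. GATA2 measured 34.0 to 62.6 CPM and TEAD4 26.0 to 63.7 CPM in the 5 pools, and both were below 10 CPM in Embryo444_2. ELF5 was highest in Embryo444_1 (130 CPM, against 17.4 to 51.6 CPM in the others). EOMES was highest in Embryo444_2 (99.5 CPM, against 24.5 to 68.8 CPM). ETS2, a factor that activates the interferon tau promoter, measured 109 to 142 CPM in the 5 pools and 49.7 CPM in Embryo444_2.

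Of the epiblast and pluripotency list, 15 genes had a row and 12 passed the filter. Their summed level was 1225 to 1715 CPM in the 5 pools, and that of Embryo444_2 was 2.71-fold below their median. SALL4 measured 531, 493, 838, 497, 461 and 76.8 CPM. POU5F1, the pluripotency factor OCT4, which in ungulate blastocysts is also found in trophectoderm, measured 306, 318, 337, 326, 257 and 14.6 CPM. The 5 pools differed from each other by less than 1.5-fold in POU5F1, and Embryo444_2 was 21.7-fold below their median. ZFP42 (REX1) measured 92.8 to 143 CPM in the 5 pools and 13.9 CPM in Embryo444_2. In contrast, NANOG measured 15.2, 15.1, 7.96, 13.1, 16.6 and 10.2 CPM, and the 6 pools overlapped. PRDM14, DPPA4 and ESRRG measured below 50 CPM in all 5 pools and were highest in Embryo444_2, at 45.3, 46.1 and 98.7 CPM. FGF4 and UTF1 were near 0, with at most 9.40 and 1.31 CPM, and did not pass the filter.

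Hypoblast genes with a row numbered 18, of which 16 passed the filter, and summed to 2043 to 2468 CPM in the 5 pools and 1267 CPM in Embryo444_2. GATA6, a factor that drives hypoblast fate, measured 443, 253, 363, 275, 409 and 40.2 CPM. Basement membrane genes made up much of the rest, with FN1 at 241 to 400 CPM, LAMA1 at 201 to 381 CPM and LAMC1 at 206 to 333 CPM in the 5 pools. RSPO3, a secreted enhancer of WNT signalling, measured 105 to 225 CPM in the 5 pools and 5.12 CPM in Embryo444_2. PDGFRA, a receptor of the primitive endoderm, measured 149, 152, 157, 133, 145 and 171 CPM and was among the most stable genes of the data set. GATA4 measured 19.5 to 44.9 CPM, while SOX17 (0.723 to 5.79 CPM) and FOXA2 (0.723 to 9.35 CPM in the 5 pools and 41.0 CPM in Embryo444_2) did not pass the filter.

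**Figure D3:**
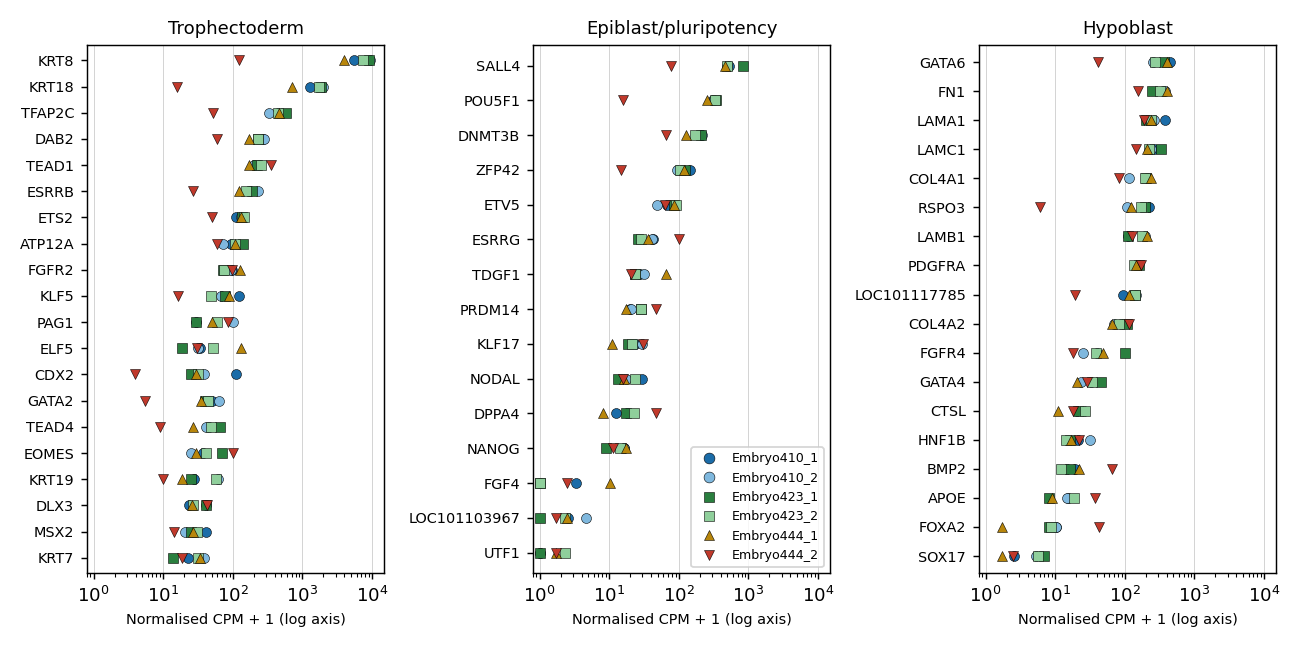
Level of each trophectoderm, epiblast or pluripotency, and hypoblast gene with a row, as TMM-normalised CPM + 1 on a log axis; each symbol is 1 pool. KRT8 lies at 3966 to 9457 in 5 pools, TFAP2C, SALL4, POU5F1 and GATA6 lie at 253 to 838, and NANOG, SOX17 and FGF4 lie at or below 16.6 in every pool; Embryo444_2 is the lowest pool for most of the abundant markers.

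Blastocoel formation depends on sodium and water transport. The sodium pump subunit ATP1B1 was not analysed here. SLC9A3R1 (NHERF1), a scaffold of apical transporters, measured 540, 656, 829, 541, 430 and 8.78 CPM and was the first of the 13 transport genes. The water channel AQP3 measured 177, 110, 94.1, 139, 142 and 62.9 CPM. SLC12A2 was highest in Embryo444_2, at 120 CPM against 45.5 to 71.1 CPM. Cell cycle genes took 0.215% to 0.240% of the counts in the 5 pools and 0.201% in Embryo444_2. Of these, MCM7, a subunit of the replicative helicase, measured 231 to 494 CPM in the 5 pools and 79.7 CPM in Embryo444_2, while the proliferation marker MKI67 measured 335, 96.4, 132, 140, 114 and 412 CPM.

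Genes of other cell types that a flush could carry along were also measured. Of the lists for sperm and testis, cumulus and granulosa, uterine epithelium, and blood and immune cells, 26 genes had a row and 14 passed the filter. The genes with a row were 12 of 13, 3 of 12, 4 of 12 and 7 of 13 in this order. CYP19A1, FSHR, LHCGR and INHA of granulosa cells and PAEP of the uterine epithelium had no row, so these cell types were poorly covered. Their means over the 5 pools ranged from 2.69 to 146 CPM with a median of 13.5 CPM, below the median of 29.6 CPM over all rows. In Embryo444_2 their levels ranged from 0.731 to 407 CPM with a median of 13.9 CPM. The highest in the 5 pools was ALAS2, the erythroid enzyme of heme synthesis, which measured 16.8, 251, 247, 195, 23.1 and 10.2 CPM. Globin genes were not analysed here, and PTPRC (CD45) measured 47.1 to 71.6 CPM with 125 CPM in Embryo444_2. The highest in Embryo444_2 was SPATA18, at 407 CPM against 15.9 to 29.7 CPM in the 5 pools. TNP1 and ODF1, which are defining sperm genes, measured at most 15.9 and 10.1 CPM. The part of such cells in the results was not tested.

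Those maternal transcripts of the oocyte list that had a row were likewise at low shares. GDF9, BMP15, OOEP, OOSP1 and H1-8 had no row and could not be measured. Of 22 genes with a row, 14 passed the filter, and their summed level was 445 to 526 CPM in the 5 pools and 541 CPM in Embryo444_2. ZP2 and ZP4, of the egg coat, measured 28.2 to 55.5 CPM and 13.7 to 30.4 CPM in the 5 pools, with 36.6 and 14.6 CPM in Embryo444_2. ZAR1 measured 3.66 to 10.8 CPM over the 6 pools. A list of 28 very long genes, many of them known from neurons or muscle and none a marker of a blastocyst lineage, held 0.342% ± 0.0459 (SD, n = 5) of the counts and 0.531% in Embryo444_2. Next to TTN, RYR2 measured 162 to 535 CPM and RYR3 204 to 296 CPM in the 5 pools, with 352 and 273 CPM in Embryo444_2. Some genes known from other tissues, such as TTN, RYR2 and RYR3, thus lay above the median row, and whether a level near that of the median row is expression or background was not tested.

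The difference between Embryo444_2 and the others followed the abundance of the transcript. Of 14856 genes passing the filter, 2697 (18.2%) were at least 2-fold below the median of the 5 other pools in Embryo444_2 and 1865 (12.6%) at least 2-fold above it, on the log2(CPM + 1) scale. With no normalization factor the balance turned, to 2093 lower and 2965 higher genes. When each of the other pools was set against its 5 others in the same way, 3.66% to 7.49% of genes were 2-fold lower and 3.42% to 5.76% 2-fold higher. Among the 27 genes with a median of 1000 CPM or more in the other pools, 26 were 2-fold lower in Embryo444_2, with a median difference of -4.67 on the log2 scale. The median difference was -3.82 for the 63 genes at 500 to 1000 CPM, -1.93 for the 430 genes at 200 to 500 CPM and -0.47 for the 1499 genes at 100 to 200 CPM. It was -0.07 at 50 to 100 CPM, 0.11 at 20 to 50 CPM and 0.39 for the 2722 genes below 20 CPM. In that lowest class the medians of the other pools were 0.05 to 0.20. No other pool departed from 0 by more than 0.69 in the median of either class above 500 CPM.

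**Figure D4:**
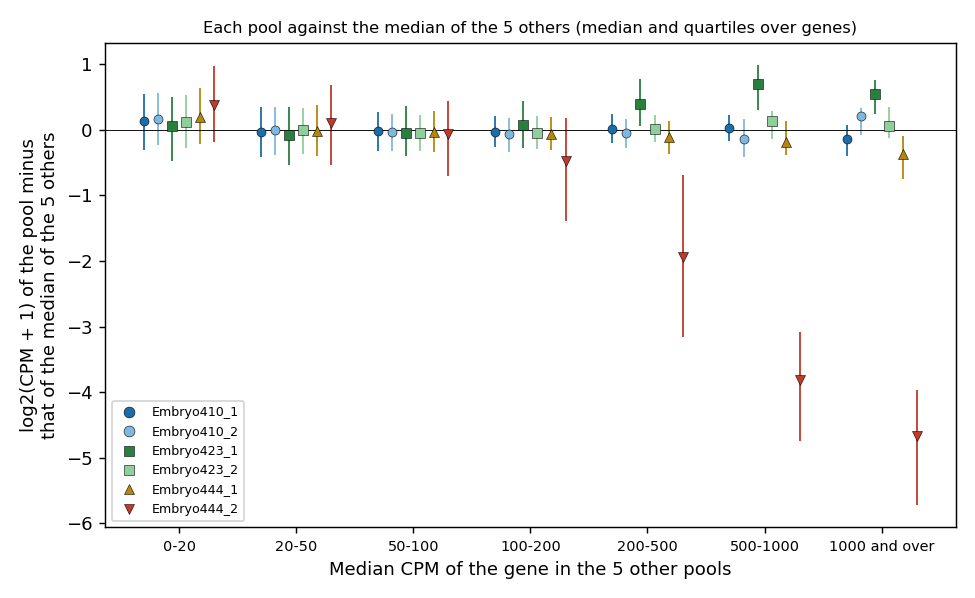
Difference in log2(CPM + 1) between each pool and the median of the 5 others, for genes grouped by their median CPM in those 5 others; symbols are medians over genes and bars the quartiles. Embryo444_2 falls from a median of 0.11 in the class of 20 to 50 to -4.67 in the class of 1000 and over, and the medians of the other pools in the classes above 500 lie between -0.36 and 0.69.

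By gene list, counts of genes 2-fold lower and higher in Embryo444_2 can be set against the 18.2% and 12.6% of all tested genes. The genes 2-fold lower are given first. They were 62 of 65 ribosomal proteins, 25 of 32 translation factors, 33 of 43 respiratory chain subunits, 17 of 23 cytoskeletal genes, 16 of 25 chaperones and 16 of 29 proteasome genes. The higher genes of these lists were 2 respiratory chain subunits and 0 of the other lists. Among the lineages, 11 of 20 trophectoderm genes, 4 of 12 epiblast genes and 6 of 16 hypoblast genes were 2-fold lower, and 1, 3 and 2 were 2-fold higher. In the cell cycle list 11 of 27 were lower and 1 higher, and in the chromatin list 7 of 23 were lower and 1 higher. In the oocyte list 1 of 14 was lower and 3 were higher, and of the very long genes 0 of 27 were lower and 5 higher. With no normalization factor, the lower genes were 62 ribosomal proteins, 23 translation factors, 31 respiratory chain subunits, 17 cytoskeletal genes, 15 chaperones and 15 proteasome genes, and the higher genes were 2 respiratory chain subunits and 0 of the others. In the same setting 14.1% of all tested genes were lower and 19.96% higher, and the lower and higher genes were 11 and 3 of the trophectoderm list, 4 and 3 of the epiblast list, 3 and 2 of the hypoblast list, 8 and 2 of the cell cycle list, and 4 and 2 of the chromatin list. They were 0 and 4 of the oocyte list and 0 and 6 of the very long genes. The lists differ in abundance, so these counts also follow the classes of abundance given above. They are a description of a single library with no test.

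Some of the genes with the largest deficits in Embryo444_2 are named here with their values. TMSB10, which binds actin monomers, measured 1208, 791, 690, 1145 and 868 CPM in the 5 pools and 3.66 CPM (5 counts) in Embryo444_2, a 237-fold difference from the median. CRIP1 was 210-fold and KRT18 118-fold below the median. RPS21 measured 99.3 to 208 CPM in the 5 pools and had no count in Embryo444_2, which was at least 55.2-fold lower when 3 counts are taken as the floor of the library. RPS16 measured 320 to 518 CPM and MRPL17, of the mitochondrial ribosome, 309 to 669 CPM in the 5 pools, and each had 3 counts (2.19 CPM) in Embryo444_2. GPX4, which protects membrane lipids from peroxidation, measured 346 to 681 CPM and 5.85 CPM.

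In the other direction, C10H13orf42 measured 44.2, 7.92, 5.79, 13.1 and 22.4 CPM in the 5 pools and 524 CPM in Embryo444_2. CYLD, a deubiquitinase of the NF-kB pathway, measured 62.2 to 78.5 CPM in the 5 pools and 560 CPM in Embryo444_2. The DNA repair nuclease FAN1 measured 36.0 to 67.1 CPM and 337 CPM, and CCDC40, a gene of motile cilia, 51.8 to 101 CPM and 341 CPM. ZBTB25, a zinc finger protein, measured 88.9 to 167 CPM and 673 CPM. In each of these 5 genes Embryo444_2 lay above all 5 other pools, and there is no second library of these embryos against which to check it.

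The spread between pools was taken as the SD of log2(CPM + 1). Over 14856 genes its median was 0.528 with all 6 pools and, over the 14266 genes that passed the filter without Embryo444_2, 0.416 with 5. For the genes with a mean of at least 100 CPM, the median was 0.506 with 6 pools (2131 genes) and 0.340 with 5 (2077 genes). Counting error alone would give a median of 0.113 and 0.104 in these 2 sets. An SD of 1 or more was found for 488 genes (22.9%) with 6 pools and for 69 (3.32%) with 5. At the other end, 7 genes with 6 pools and 30 with 5 had an SD no larger than their counting error. Counting error here treats reads as independent, which amplified reads without molecular identifiers are not.

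**Figure D5:**
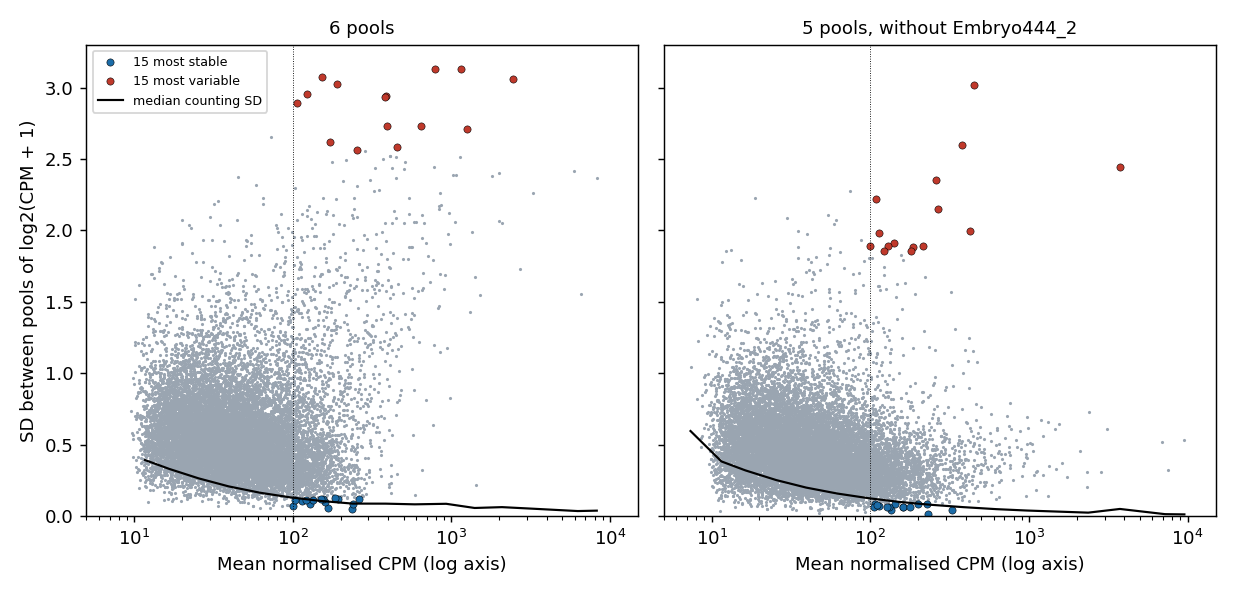
SD between pools of log2(CPM + 1) against mean CPM (log axis) for the 14856 genes passing the filter in 6 pools, with all 6 pools on the left and without Embryo444_2 on the right; blue and red points are the 15 most stable and the 15 most variable genes with a mean of at least 100 CPM (dotted line), and the black line is the median SD from counting error. Genes with an SD of 1 or more number 488 of 2131 on the left and 69 of 2077 on the right.

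The most stable genes were sought among those with a mean of at least 100 CPM. The 15 with the smallest SD over 6 pools ranged from 0.05 to 0.13 in SD and from 100.2 to 260 CPM in mean level. TRIP12, an E3 ubiquitin ligase, was the first with 237, 239, 239, 243, 241 and 220 CPM (SD 0.05). IQGAP1, a scaffold of the actin cytoskeleton, measured 170, 175, 156, 166, 167 and 173 CPM (SD 0.06). Others were the muscle gene NRAP, DIP2C, the kinase SMG1 of nonsense-mediated decay (220 to 259 CPM), UBN2, ARFGEF1, the splicing factor SRSF4, ZBTB34, CPD, the polarity gene PATJ (listed as LOC101106044), the Mediator kinase module subunit MED13L, PDGFRA, the histone methyltransferase KMT2D (220 to 283 CPM) and the kinase WNK1. For 7 of the 15 the SD was no larger than counting error. WNK1 was the last inside the 15 and ASTE1 the first outside, both with an SD of 0.13.

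Without Embryo444_2, 5 of these genes stayed among the 15 most stable (TRIP12, IQGAP1, SMG1, ARFGEF1 and PDGFRA). TRIP12 again came first, with an SD of 0.02. The 2 next were the ribosomal proteins RPL27A, with 338, 328, 329, 347 and 347 CPM (SD 0.04), and RPS14, with 142, 140, 138, 132 and 145 CPM (SD 0.05). They had 15 and 12 counts in Embryo444_2, so that these genes were even in 5 pools and far from even in 6. VPS35L (an endosomal recycling gene), the membrane anchor ANK3, PRRC2C, PPFIA1, the splicing regulator RBM5, PTPN13, GCC2 and KIAA1217 completed the set with ARFGEF1, SMG1, IQGAP1 and PDGFRA. In 14 of these 15 the SD was no larger than counting error, so their order was not detectable at this number of counts. ARIH1 lay just outside.

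Ranked by the SD of log2(CPM + 1), the most variable genes over 6 pools were mostly genes that were low in Embryo444_2. The list depends on the measure of spread, since 0 of its 15 genes were among the 15 with the largest coefficient of variation (SD over mean CPM). That coefficient was 0.551 for TMSB10 and 0.558 for CRIP1, against 1.98 for MFGE8 and 1.97 for LOC101115969, each high in a single pool. The 15 with the largest SD (2.56 to 3.13) had it as the low extreme in 14 cases. They were TMSB10, CRIP1, LGALS3, KRT18, the ribosomal proteins RPS21, RPS16 and RPS20, MRPL17, the brain-type creatine kinase CKB, SERF2 and 4 genes known by locus number (LOC101102690, LOC101103232, LOC101120186 and LOC101101962). CKB, for example, measured 645, 521, 1221, 750 and 722 CPM in the 5 pools and 6.58 CPM in Embryo444_2. LOC101101962 was the last inside the 15 and LSM7 the first outside, both with an SD of 2.56. The remaining gene, GGT7, a gamma-glutamyltransferase family member, measured 20.6, 1393, 19.5, 33.3, 848 and 51.2 CPM, and was the only gene that also stood among the 15 most variable genes without Embryo444_2.

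Among the other 5 pools, the listed genes with large spread mostly had 1 or 2 pools with a high level. Genes were ranked from a mean of 100 CPM, which some reached only through a high pool. PARVG, for example, averaged 109 CPM, with 494 CPM in Embryo423_2 and 8.69 to 21.3 CPM in the rest of the 5. The pattern therefore partly follows from that minimum. Of the 15 most variable genes over the 5 pools (SD 1.86 to 3.01), 14 had a high pool as the extreme: 4 in Embryo444_1, 3 each in Embryo410_2, Embryo423_1 and Embryo423_2, and 1 in Embryo410_1. GGT7 came first, followed by LOC101113251 (1281 CPM in Embryo423_2 and 560 CPM in Embryo444_1, against 26.1 to 38.1 CPM) and UBR4. MFGE8, the milk fat globule protein that bridges apoptotic cells to phagocytes, measured 99.1, 93.5, 1868, 62.0 and 93.3 CPM. GOLM2 (listed as LOC101115969) measured 1210 CPM in Embryo410_2 against 33.5 to 50.9 CPM, RTCB, the tRNA ligase, 876 CPM in Embryo410_2 against 26.1 to 75.9 CPM, and PABPC1L, an oocyte poly(A)-binding protein, 769 CPM in Embryo423_1 against 31.3 to 77.7 CPM.

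Further genes of this kind were LPXN (1155 CPM in Embryo444_1), RDH5 (515 CPM in Embryo444_1), the chemokine CCL24 (490 CPM in Embryo423_2), PARVG (494 CPM in Embryo423_2), LAMTOR2 (458 CPM in Embryo423_1) and GAK (694 CPM in Embryo410_1). KRT40 was highest in Embryo444_1 but less clear-cut, with 89.9, 109, 15.9, 12.4 and 289 CPM in the 5 pools. ALAS2 was the gene with a low pool as the extreme, and had 3 high and 2 low pools. DGCR8 lay just outside with an SD of 1.83, against 1.86 for GAK, the last inside. In all 2131 genes with a mean of at least 100 CPM, 25 had a pool at 5 or more times the next highest, and each pool held some of them: 4 genes in Embryo410_1, 6 in Embryo410_2, 5 in Embryo423_1, 2 in Embryo423_2, 5 in Embryo444_1 and 3 in Embryo444_2. Some of the 25 passed the 100 CPM minimum only through that pool, so the count depends on it. C10H13orf42, for example, had a mean of 103 CPM, with 524 CPM in Embryo444_2 and at most 44.2 CPM elsewhere. Examples outside the lists above were CSF1R (649 CPM in Embryo410_2, against 25.3 to 53.5 CPM) and SGK1 (1118 CPM in Embryo410_1, against 105 to 217 CPM), chosen after their values were seen. By the 5-fold rule no other pool, the partner pool of the same ram included, could share the high value in these 25 genes.

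The spread over the 5 pools is given by list for comparison. Junction genes, proteasome genes, chromatin genes and ribosomal proteins had median SDs of 0.30, 0.30, 0.31 and 0.32, below the 0.42 of all genes. Oocyte genes, imprinted genes and respiratory chain subunits had 0.48 each, and the trophectoderm, hypoblast and epiblast lists 0.42, 0.38 and 0.36. These medians were not tested and move with the abundance of the genes.

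Differences between the rams, which here may stand for sire and dam together, were tested across the 14856 genes that reached 15 counts in 4 or more pools, using the quasi-likelihood test of edgeR with 3 rams and 2 pools each. No gene passed an FDR of 0.05 (0 of 14856, or 0%), and 678 genes (4.56%) had an unadjusted p under 0.05. The smallest adjusted p was 0.909, and the common biological coefficient of variation was 0.416. With likelihood-ratio tests, edgeR called 52 genes and DESeq2 31. Among the 5 genes with the smallest p were LOC114110581, ZIC2, LOC114108605 and NTMT1. The zinc finger factor ZIC2 measured 124 and 160 CPM in the pools of Ram444 and 10.1 to 38.9 CPM in the others. NTMT1 measured 45.6 and 138 CPM in the pools of Ram423 and 6.86 to 14.6 CPM in the others. None of these differences passed the quasi-likelihood test of edgeR after adjustment, while DESeq2 called all 4 of these genes.

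The outcome of this test depended on the pools of Ram444. Without Embryo444_2 the same edgeR test called 8 of 14266 genes (RDH5, FRS3, CHST10, KRT40, TNIP1, CHRNA6, DGCR8 and OTOP2), and without Embryo444_1, which leaves Embryo444_2 as the only pool of its ram, it called 881 of 14191. In both cases Ram444 had a single pool, which was assumed to vary like the others. All 8 genes were highest in Embryo444_1: RDH5 measured 515 CPM there and 21.9 CPM in Embryo444_2, TNIP1 519 and 60.0 CPM, and DGCR8 612 and 24.9 CPM. The high level was therefore seen in 1 of the 2 pools of that ram. Leaving out any pool of Ram410 or Ram423 gave 0 genes. A p that misses the threshold does not show that the litters were alike.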

How the data were processed

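RNA of 6 control pools of 5 blastocysts was extracted, amplified with the REPLI-g WTA Single Cell Kit and sequenced as 100-bp single-end reads. The authors trimmed the reads with Trimmomatic, used STAR to align them to Oar_rambouillet_v1.0 and to count them by gene. The deposited values are raw counts, and neither the strand setting nor molecular identifiers are given. Sperm methylation counts were not used here.

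Genes that reached 15 counts in 4 or more pools were kept, counts were normalised by TMM (edgeR 4.0.16, R 4.3.3), and levels are CPM, with SDs on log2(CPM + 1). Without Embryo444_2, filter and factors were estimated anew for the spread and for the test. List shares and folds kept the factors of 6 pools. Rams were compared by the quasi-likelihood test of edgeR with Benjamini-Hochberg adjustment. It was also run on simulated counts. These held no pool set apart like Embryo444_2, so that check does not cover the effect of such a pool. DESeq2 1.42.0 was an alternative. Both pools of a ram have 1 sire and, by the study's schematic, 1 dam, and the p-values measure the spread between pools only. Totals of 1173289 to 1554651 counts give a median counting SD of 0.203 on the log2 scale per gene.

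Lists were matched by symbol, then by RefSeq gene ID (ARS-UI_Ramb_v3.0, names only). Named genes were the 3 markers, the 20 of largest share, the 15 least and 15 most variable from 100 CPM, lineage genes, up to 4 leading genes per other list, the 5 smallest p between rams and the 10 largest changes in each direction in Embryo444_2. A few genes that the rule names are not reported here. Members and lists were chosen with earlier results of these data known. The ribosomal, mitochondrial ribosomal and respiratory chain families were added by symbol after values were seen. Python 3.11.15 with numpy 2.4.6, pandas 2.3.3 and matplotlib 3.10.9 did the rest.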

Additional observations from a re-analysis of the deposited data

Results flagged for a closer look

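Among 52 levels examined over the 6 pools (totals, list sums and named genes), 12 had a pool whose gap to its nearest neighbour, divided by the whole range, was above the 95% critical value of Dixon for 6 samples. Chance flags about 1 in 20 independent groups. These levels are not independent, since list sums share genes with each other and with the single genes, and some genes were chosen for their spread, so the number of flags cannot be read against that share. In 10 of the 12 the pool was Embryo444_2. It was low for the summed hypoblast genes (ratio 0.646), glycolysis genes (0.732), translation factors (0.651), ribosomal proteins (0.657) and respiratory chain subunits (0.664), and for the single genes ACTG1 (0.683), POU5F1 (0.752) and TRIP12 (0.726). TRIP12 differed by little in size, with 220 CPM against 237 to 243 CPM. Embryo444_2 was high for the sperm and testis list (0.849), where SPATA18 contributed 407 of 639 CPM. It was also high for the cumulus and granulosa list (0.715), which had only 3 genes with a row and where HAS2 contributed 110 of 166 CPM. Embryo444_1 was high for UBR4 (0.830) and low for the oocyte list (0.649), with 445 CPM against 507 to 541 CPM.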

How the results depend on the processing

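Between rams, 0 genes were called by the quasi-likelihood test under RLE normalization, without the filter on low counts and with the replicate block (699 genes at an unadjusted p under 0.05). Differences between pools 1 and 2 were close to uncorrelated between Ram410 and Ram423 (0.00386). The correlations with Ram444 were 0.0573 for Ram410 and 0.156 for Ram423. Both rest on Embryo444_2, so they cannot show whether pool numbers pair the samples. The labels do not say that a number marks a shared batch. With likelihood-ratio tests, edgeR called 52 genes and DESeq2 31. Leaving out each pool gave 0 to 881 genes, with 881 without Embryo444_1 and 8 without Embryo444_2. Of the 15 most stable genes, 5 were kept with a minimum mean of 50 CPM and 5 to 9 when a pool was left out. Of the 15 most variable, 9 were kept with a pseudocount of 5 CPM, 0 by the coefficient of variation and 1 to 14 when a pool was left out, the 1 being without Embryo444_2. Without a normalization factor (added after the values were seen), the median difference of Embryo444_2 from the other pools was 0.29 in place of 0.02 on the log2 scale, with 2965 genes 2-fold higher and 2093 lower, and the median of the sperm list turned from -0.15 to 0.08. Of the other values recomputed under these settings, 62 for summary results and 63 for single genes moved by less than the limits set for them. The cause of these shifts was not tested. The number of counts limits single genes below about 10 CPM.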
